A study of Mus musculus with 10 samples.

Results

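The mesothelial genes Wt1, Upk3b, Upk1b, Msln, Lrrn4 and Krt19 were followed in RNA sequencing of mouse lung, 6 genes of the 54532 in the gene count table. The set was chosen by the lower levels of Upk3b and Wt1 in lipopolysaccharide-treated lungs, as seen in these same libraries. Their differences from Vehicle are therefore descriptions, with no p-value, and the counts of calls printed there support nothing. All 6 were found in the table by symbol and all 6 passed the filter on low counts. Whole lung tissue of wild-type (WT) mice gave 10 libraries in 3 groups. In LPS+TSLP, 4 libraries, recombinant TSLP preceded LPS. LPS alone (3 libraries) and Vehicle (3 libraries) were the other groups. LPS, lipopolysaccharide, comes from the outer membrane of Gram-negative bacteria and is sensed by TLR4. TSLP stands for thymic stromal lymphopoietin, a cytokine that epithelia release. Strain, sex, age, doses, routes, time points and the way the lungs were dissected are not given in the sources used here. The labels do not state whether replicates were separate animals, so p-values measure only the spread between these libraries.

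Mesothelium is the single layer of flat cells that lines the pleura and covers the lung, and it also covers the heart and the other organs of the body cavities. In whole lung it is a minor cell type at the tissue surface. WT1 is a zinc-finger transcription factor of the mesothelial lineage and acts in the nucleus. Upk3b and Upk1b encode uroplakins, membrane proteins first known from the bladder lining. Msln encodes mesothelin, a GPI-anchored surface protein that binds the mucin MUC16, and Lrrn4 encodes a membrane protein with leucine-rich repeats. Krt19 encodes a keratin of intermediate filaments that airway and alveolar epithelium also make. Surface proteins are thus encoded by 4 of the 6 genes. In tissue RNA, fewer cells of a type and less RNA per cell cannot be told apart.

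On the GRCm38 build with the GENCODE M21 annotation, Wt1 (ENSMUSG00000016458) lies on the plus strand of chromosome 2 from 105126529 to 105173616. Upk3b (ENSMUSG00000042985) is on the plus strand of chromosome 5 from 136038496 to 136046487. Upk1b (ENSMUSG00000049436) is on the minus strand of chromosome 16 from 38773184 to 38800328, and Msln (ENSMUSG00000063011) on the minus strand of chromosome 17 from 25748613 to 25754378. Lrrn4 (ENSMUSG00000043110) is on the minus strand of chromosome 2 from 132868305 to 132880891, and Krt19 (ENSMUSG00000020911) on the minus strand of chromosome 11 from 100140810 to 100148665. Reads were counted over whole genes, and no exon of the 6 overlapped an exon of another annotated gene.

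Among the mesothelial genes followed here, a promoter sequence was available for only 2, Upk3b and Lrrn4. The 250 bases before their start sites are therefore shown, and the pair was not picked for moving together over the libraries. The promoters of the other genes were not searched. The sequences are RefSeq's on GRCm38.p6, 5′ to 3′ on the gene's strand, for Upk3b chr5:136038246-136038495 (plus) and for Lrrn4 chr2:132880863-132881112 (minus). On the minus strand, the GENCODE gene Lrrn4 starts at 132880891, inside the RefSeq window, so the window's last bases lie within that gene. Capitals mark matches to motifs searched on both strands.
Upk3b: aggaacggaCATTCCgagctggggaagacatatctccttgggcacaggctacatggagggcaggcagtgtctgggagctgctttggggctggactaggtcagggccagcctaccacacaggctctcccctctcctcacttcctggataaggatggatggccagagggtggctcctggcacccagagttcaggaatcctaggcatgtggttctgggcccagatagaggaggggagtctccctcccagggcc
Lrrn4: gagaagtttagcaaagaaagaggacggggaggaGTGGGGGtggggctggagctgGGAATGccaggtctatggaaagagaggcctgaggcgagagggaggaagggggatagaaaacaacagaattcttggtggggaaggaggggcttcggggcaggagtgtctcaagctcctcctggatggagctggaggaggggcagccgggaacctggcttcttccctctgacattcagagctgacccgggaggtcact
The letters searched were TATAAA (the TATA box), GGAATG (TEAD factors), GTGGGNG (a core shared by EGR factors and WT1) and GGGCGG (the GC box of Sp and KLF factors). GGAATG stood in both windows, on the minus strand (as CATTCC) from −241 in Upk3b and on the plus strand from −196 in Lrrn4. Among 32851 RefSeq promoter windows of the same length, 12.6% held it. GTGGGNG stood once, as GTGGGGG from −217 in Lrrn4, and 28.1% of all windows held it. TATAAA, in 12.4% of all windows, and GGGCGG, in 32.7%, had no match in either sequence. The G and C content was 60.8% in the Upk3b window and 59.2% in the Lrrn4 window.

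Total counts per library ran from 16175172 to 18374461, so 1 count was worth about the same in each. Levels are CPM (counts scaled to a common library size) after scaling with the trimmed mean of M values. LPS+TSLP replicate 1, LPS replicate 1 and, in Ddx3y, the Vehicle group stood apart before any result on these genes. LPS+TSLP replicate 1 had 13.1% of its counts on mitochondrial genes, against 2.0% to 6.5% in the other LPS+TSLP libraries, 1.2% to 2.58% in LPS and 1.11% to 1.27% in Vehicle. Of the sex-linked transcripts, LPS replicate 1 had 206 CPM of Xist and no Ddx3y count, whereas every other library had at most 0.452 CPM of Xist. Ddx3y was at 59.7 to 94.8 CPM in LPS+TSLP, at 70.1 and 89.6 CPM in the other LPS libraries, and at 6.03 to 11.4 CPM in Vehicle. The Vehicle difference in Ddx3y coincides with treatment, and its cause was not tested. The fold changes of Upk3b, Lrrn4 and Wt1 are given with and without LPS+TSLP replicate 1 and LPS replicate 1. Markers of lung epithelium were present throughout, with summed levels of 8 alveolar type 2 markers from 3972 to 23610 CPM in LPS+TSLP, 6816 to 14685 CPM in LPS and 17018 to 26711 CPM in Vehicle.

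Per kilobase of exon, the 6 genes covered a wide span of levels, with Krt19 at the top and Wt1 at the bottom in every group. Krt19 averaged 104 ± 34.9 CPM per kilobase in LPS+TSLP (SD, n = 4), 104 ± 43.1 in LPS and 102 ± 17.5 in Vehicle (SD, n = 3 each). Wt1 averaged 0.0455 ± 0.00641 CPM per kilobase in LPS+TSLP, 0.0785 ± 0.0345 in LPS and 0.199 ± 0.126 in Vehicle. Between them in Vehicle came Upk1b (15.5 ± 4.53 CPM per kilobase), Msln (12.8 ± 4.29), Upk3b (6.87 ± 6.43) and Lrrn4 (1.86 ± 1.59), and the ranges of neighbours among these 4 genes overlapped. Krt19 lay above the range of Upk1b, and Wt1 lay below that of Lrrn4. In LPS+TSLP and in LPS, Msln stood above Upk1b, with ranges that overlapped. Upk1b was there clear of Upk3b, which overlapped Lrrn4. In LPS the range of Lrrn4 also overlapped that of Wt1.

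Wt1, the transcription factor, was rare in every library. It had 5, 4, 5 and 5 counts in the LPS+TSLP libraries, in replicate order, 12, 6 and 7 in those of LPS, and 38, 15 and 14 in those of Vehicle. Scaled, the levels averaged 0.282 ± 0.0397 CPM in LPS+TSLP (SD, n = 4), 0.486 ± 0.214 CPM in LPS and 1.23 ± 0.781 CPM in Vehicle (SD, n = 3 each). All LPS+TSLP libraries were below all LPS libraries, which were below all Vehicle libraries. Vehicle replicate 1 alone held 56.7% of the Vehicle counts.

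Upk3b, the uroplakin on which the choice rested, ranged further than any other of the 6 genes. It had 0.256, 2.42, 0.218 and 5.37 CPM in LPS+TSLP, 0.122, 4.29 and 3.61 CPM in LPS, and 50.4, 12.2 and 10.1 CPM in Vehicle. The raw counts behind these values were 4, 42, 4 and 88 in LPS+TSLP, 2, 76 and 65 in LPS, and 898, 228 and 185 in Vehicle. Every Vehicle library was above every other library. Within LPS+TSLP and within LPS, libraries at a few counts stood beside libraries with 42 counts or more. Vehicle replicate 1 held 68.5% of the Vehicle counts.

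Lrrn4 followed nearly the same order of libraries with fewer counts. It had 4, 12, 5 and 38 counts in LPS+TSLP, 0, 31 and 27 in LPS, and 244, 73 and 57 in Vehicle. In CPM these were 0.256, 0.691, 0.273 and 2.32 in LPS+TSLP, 0, 1.75 and 1.5 in LPS, and 13.7, 3.9 and 3.11 in Vehicle. A count of 0 in LPS replicate 1 allows up to 3 counts, or 0.183 CPM, counting error alone considered. The 3 Vehicle libraries were again highest, and Vehicle replicate 1 held 65.2% of the Vehicle counts.

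Upk1b, the second uroplakin, was lowest in LPS. Its levels were 14.9, 19.6, 14 and 21.2 CPM in LPS+TSLP, 7.74, 15.5 and 5.78 CPM in LPS, and 42.1, 32 and 23.2 CPM in Vehicle. LPS+TSLP and LPS overlapped through LPS replicate 2, while Vehicle overlapped neither.

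Msln and Krt19 did not separate the groups. Msln had 36.5, 42.1, 24.9 and 28.4 CPM in LPS+TSLP, 18.6, 18.6 and 39.5 CPM in LPS, and 51.3, 25.3 and 41.3 CPM in Vehicle, so the ranges of all 3 groups overlapped. Krt19 had 135, 253, 138 and 244 CPM in LPS+TSLP, 282, 170 and 127 CPM in LPS, and 197, 153 and 216 CPM in Vehicle. The highest and the lowest Krt19 value of the series both came from LPS.

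**Figure D1:**
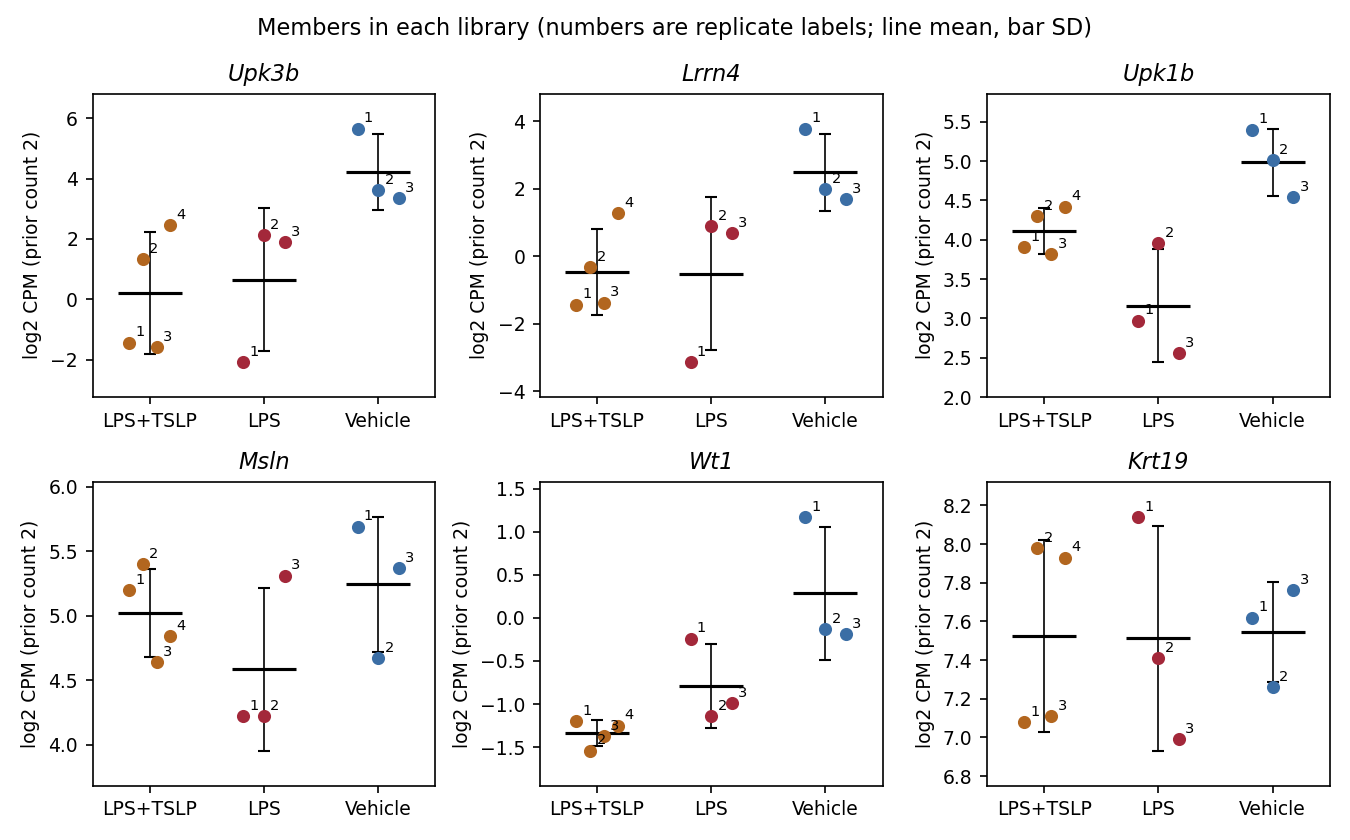
Level of each of the 6 genes (log2 CPM with a prior count of 2) in the LPS+TSLP (4), LPS (3) and Vehicle (3) libraries; points are libraries with their replicate numbers, the line is the group mean and the bar is 1 SD. Upk3b, Lrrn4, Upk1b and Wt1 have all Vehicle points above all others, Msln and Krt19 do not, and Upk3b and Lrrn4 have LPS replicate 1 far below LPS replicates 2 and 3.

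LPS against Vehicle is taken here as a difference that led to the choice of the genes. Upk3b averaged 2.67 ± 2.24 CPM in LPS and 24.2 ± 22.7 CPM in Vehicle (SD, n = 3 each), 11% of the Vehicle mean. Lrrn4 averaged 1.08 ± 0.947 CPM in LPS and 6.9 ± 5.9 CPM in Vehicle. Upk1b averaged 9.66 ± 5.13 CPM in LPS and 32.4 ± 9.46 CPM in Vehicle. Fitted log2 fold changes of LPS over Vehicle, from a negative binomial model of all libraries, were −3.17 (SE 1.20) for Upk3b, −2.66 (SE 1.09) for Lrrn4 and −1.75 (SE 0.36) for Upk1b. Those of Wt1, Msln and Krt19 were −1.33 (SE 0.58), −0.62 (SE 0.35) and 0.03 (SE 0.34). A gene counts as called when its p, adjusted by Benjamini-Hochberg over the 17139 genes tested, is under 0.05. Upk1b was the 1 of the 6 called lower, beside 10.7% of all genes tested called lower, and 4 of the 6 lay wholly below Vehicle, beside 25.1% of all genes. Since the choice is taken to have used this comparison, nothing is read from these counts. The standard errors of Upk3b and Lrrn4 were about as wide as a doubling on either side. Without Vehicle replicate 1 the log2 fold change was −2.06 for Upk3b, −1.69 for Lrrn4 and −0.67 for Wt1. Without LPS replicate 1 and LPS+TSLP replicate 1 it was −2.59 for Upk3b, −2.06 for Lrrn4, −1.72 for Wt1 and −1.59 for Upk1b.

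LPS+TSLP against Vehicle shares its Vehicle libraries with the comparison above, and is likewise a description. Upk3b averaged 2.07 ± 2.43 CPM in LPS+TSLP (SD, n = 4) and 24.2 ± 22.7 CPM in Vehicle (SD, n = 3). The log2 fold changes were −3.55 (SE 1.09) for Upk3b, −2.96 (SE 1.0) for Lrrn4 and −2.10 (SE 0.55) for Wt1. They were −0.90 (SE 0.33) for Upk1b, −0.25 (SE 0.32) for Msln and 0.03 (SE 0.32) for Krt19. Wt1 was the 1 of the 6 called lower, beside 5.35% of all genes tested, and 4 of the 6 lay wholly below Vehicle, beside 15.9% of all genes. Without Vehicle replicate 1 the value for Upk3b was −2.46, that for Lrrn4 was −2.01 and that for Wt1 was −1.45, and none of the 6 was called. None was called without Vehicle replicate 2, LPS+TSLP replicate 2 or LPS+TSLP replicate 3 either, and 3 were without LPS+TSLP replicate 4 or LPS replicate 1. Calls over all genes shifted too, from 917 lower with all libraries to between 81, without Vehicle replicate 1, and 1478 in the leave-one-out fits. These counts are therefore not particular to the 6 genes. With replicate 1 of both LPS and LPS+TSLP left out the value was −3.17 for Upk3b, −2.64 for Lrrn4 and −2.15 for Wt1.

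LPS+TSLP against LPS was tested, though its LPS libraries also took part in the choice of the genes. As the choice named no comparison, this test is not known to be independent of it for Upk3b and Wt1. None of the 6 was called in either direction by edgeR's quasi-likelihood test, and 0% of all genes tested were called higher and 0% lower. At an unadjusted p under 0.05 there were 1388 genes, Upk1b the only one of the 6. Over all genes the DESeq2 Wald test called 22 higher and 13 lower, none of the 6 among them, and limma-voom called 0. Upk1b averaged 17.4 ± 3.52 CPM in LPS+TSLP (SD, n = 4) and 9.66 ± 5.13 CPM in LPS (SD, n = 3). The fit put it at 0.85 on the log2 scale (SE 0.34, unadjusted p = 0.029, adjusted p = 0.595). Wt1 was at −0.77 (SE 0.58, adjusted p = 0.775) and was the 1 of the 6 that lay wholly below LPS, beside 3.54% of all genes. This rests on 4 or 5 counts per LPS+TSLP library against 6 to 12 per LPS library. Msln had 0.37 (SE 0.33, adjusted p = 0.807) and Krt19 −0.00 (SE 0.32, adjusted p = 1). Upk3b had −0.38 (SE 1.09, adjusted p = 0.951) and Lrrn4 −0.30 (SE 1.03, adjusted p = 0.959). For this pair a change of several fold in either direction lies within 2 standard errors, so at this replicate number neither a difference nor its absence was shown. Without LPS+TSLP replicate 4 the value for Upk3b was −1.44, and without LPS replicate 2 it was 0.13. Without LPS replicate 1 it was −0.96 for Upk3b, −0.90 for Lrrn4 and −0.35 for Wt1. Without LPS+TSLP replicate 1 it was −0.06 for Upk3b, −0.04 for Lrrn4 and −0.85 for Wt1.

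**Figure D2:**
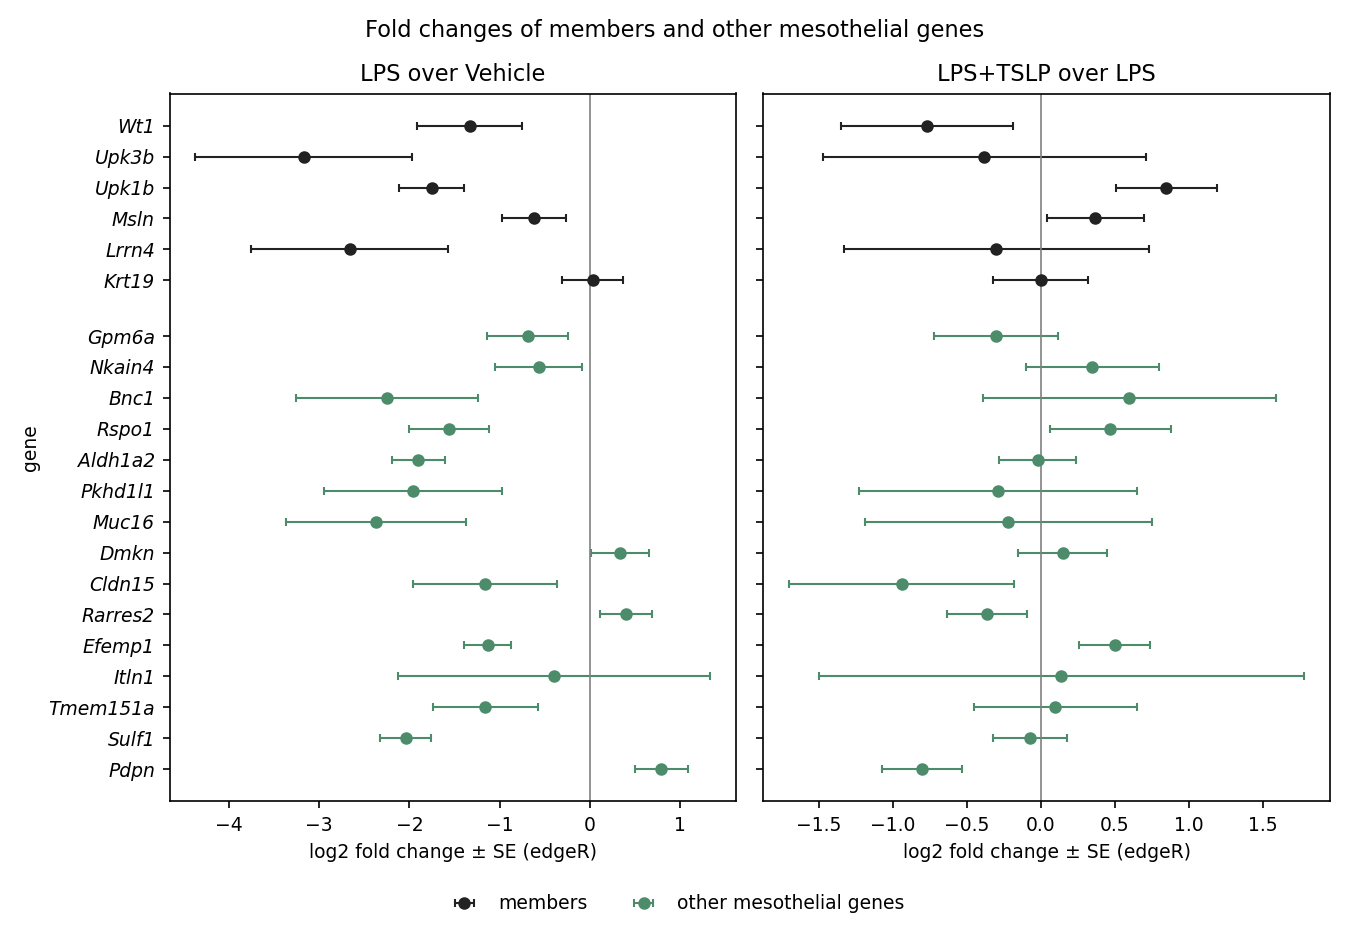
Log2 fold change with its standard error (edgeR, 10 libraries in 1 fit) of the 6 genes (black) and of 15 other mesothelial genes (green), LPS over Vehicle on the left and LPS+TSLP over LPS on the right. In the left panel Upk3b (−3.17) and Lrrn4 (−2.66) have the most negative values, with wide bars, and in the right panel the values lie around 0.

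The 6 genes differed in how far they varied. The SD within groups of log2 CPM was 1.95 for Upk3b and 1.59 for Lrrn4, and 0.49% and 1.08% of the genes tested had one as large. It was 0.49 for Wt1, Upk1b and Msln and 0.47 for Krt19, close to the median of 0.40 over the genes tested. The highest library was 214 times the lowest for Upk3b and 121 times for Lrrn4, on a scale with a prior count of 2. For Upk1b this was 7.16 times, for Wt1 6.52 times, for Msln 2.75 times and for Krt19 2.22 times. Across the 10 libraries the log2 ratio of Upk3b to Lrrn4 had an SD of 0.70. That of Upk3b to Msln had 2.33, to Wt1 2.16, to Upk1b 2.05 and to Krt19 2.54. Among Wt1, Upk1b, Msln and Krt19 the SD ran from 0.68 (Msln to Krt19) to 0.89 (Upk1b to Krt19). Such an SD also depends on the spread of each gene alone, 2.53 for Upk3b over the 10 libraries, and co-variation was not tested. These are descriptions over libraries that share group, depth and scaling. LPS replicate 1 had the lowest Upk3b and Lrrn4 of the series. Upk1b (7.74 CPM) and Msln (18.6 CPM) were next to lowest there. Wt1, by contrast, was highest within the LPS group, at 12 counts against 6 and 7, and Krt19 was highest of all libraries.

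**Figure D3:**
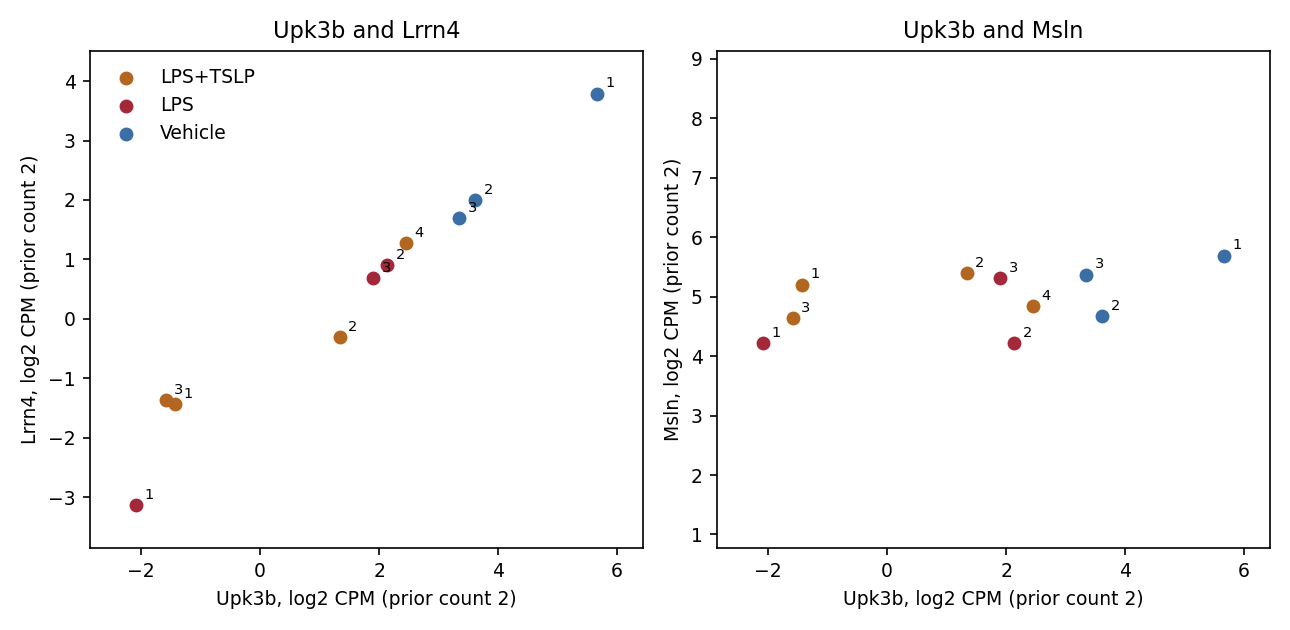
Upk3b against Lrrn4 (left) and against Msln (right) in the 10 libraries, log2 CPM with a prior count of 2, coloured by group and numbered by replicate. Lrrn4 climbs with Upk3b from LPS replicate 1 to Vehicle replicate 1 (SD of the log2 ratio 0.70), while Msln spans little of the range of Upk3b (SD 2.33).

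Other genes known from mouse mesothelium, 16 in number, were set beside the 6. Several are also made by fibroblasts, alveolar type 1 cells or nerve cells, and which cells their RNA came from was not tested. The fibroblast markers Col1a1, Col1a2 and Col3a1 were themselves called lower in LPS against Vehicle. Calb2, the calretinin gene used as a mesothelial marker in human pathology, had at most 1 count in any library and was not tested, which left 15. In LPS against Vehicle 4 of the 15 fell, none rose and 11 did not pass, beside 10.7% of all genes tested called lower. Their median log2 fold change was −1.16, and that of all genes tested was 0.01. Lists of cell type markers had medians from −3.00 (adipocyte) to 1.15 (neutrophil). Among them, club cell was at −1.41, alveolar type 2 at −1.11, endothelium at −0.91, fibroblast at −0.83 and leukocyte at 0.86. A median this low was thus not particular to the mesothelial list. Sulf1, a heparan sulfate endosulfatase, averaged 16.3 ± 4.44 CPM in LPS and 67.1 ± 7.89 CPM in Vehicle (log2 fold change −2.04, SE 0.28, adjusted p = 0.00196). Aldh1a2, which makes retinoic acid, averaged 5.33 ± 0.193 CPM in LPS and 19.8 ± 4.68 CPM in Vehicle (−1.90, SE 0.29, adjusted p = 0.00271). Efemp1, which encodes the matrix protein fibulin-3, was at −1.13 on the log2 scale (SE 0.26, adjusted p = 0.0116). Rspo1, a secreted enhancer of Wnt signalling, was at −1.56 (SE 0.44, adjusted p = 0.0255). In 10 of the 15, these 4 among them, the LPS libraries lay wholly below the Vehicle libraries, and in 1 wholly above. Over all genes tested the shares were 25.1% below and 24.7% above. With Vehicle replicate 1 left out 2 of the 15 were called lower, and with LPS replicate 1 and LPS+TSLP replicate 1 left out 3 were. Leaving out Vehicle replicate 1 also took the count called lower over all genes from 1836 to 640.

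Several of the rarer genes of that list had large but uncertain differences. Muc16, the mucin that binds mesothelin, had 5, 5, 2 and 18 counts in LPS+TSLP, 0, 13 and 15 in LPS, and 88, 24 and 37 in Vehicle. Its log2 fold change of LPS over Vehicle was −2.37 (SE 1.0, adjusted p = 0.103). Bnc1, a zinc-finger factor, had 5, 7, 1 and 14 counts in LPS+TSLP, 0, 9 and 5 in LPS, and 41, 11 and 18 in Vehicle, and LPS over Vehicle was −2.25 (SE 1.01, adjusted p = 0.119). Pkhd1l1, a very large membrane protein, had 0, 24, 8 and 33 counts in LPS+TSLP, 7, 20 and 35 in LPS, and 158, 46 and 44 in Vehicle. Cldn15, a claudin of tight junctions, had 0, 25, 26 and 33 counts in LPS+TSLP, 32, 48 and 43 in LPS, and 144, 57 and 86 in Vehicle. The SD within groups was 1.24 for Muc16, 1.07 for Bnc1, 1.45 for Pkhd1l1 and 1.34 for Cldn15. The 4 genes called lower had tighter groups, at 0.55 for Rspo1, 0.35 for Sulf1, 0.33 for Efemp1 and 0.30 for Aldh1a2. Podoplanin (Pdpn), which alveolar type 1 cells also make, averaged 306 ± 62.7 CPM in LPS and 177 ± 28.5 CPM in Vehicle (log2 fold change 0.79, SE 0.29, adjusted p = 0.0677).

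In LPS+TSLP against Vehicle, Sulf1 and Aldh1a2 fell, 2 of the 15, beside 5.35% of all genes tested. The count was 4 without LPS+TSLP replicate 1 and 4 without LPS+TSLP replicate 4. Sulf1 averaged 15.6 ± 4.3 CPM in LPS+TSLP and differed from Vehicle by −2.11 on the log2 scale (SE 0.25, adjusted p = 0.00182). Aldh1a2 averaged 5.25 ± 1.35 CPM in LPS+TSLP and differed by −1.92 (SE 0.26, adjusted p = 0.00242). In LPS+TSLP against LPS none of the 15 was called by edgeR, DESeq2 or limma-voom. By edgeR, Pdpn alone had an unadjusted p under 0.05 there (log2 fold change −0.80, SE 0.27, unadjusted p = 0.0129, adjusted p = 0.589). Over all genes, 1388 of 17139 did. Pdpn was at 97.5 CPM in LPS+TSLP replicate 1 and at 200 to 204 CPM in the other LPS+TSLP libraries. The median of the 15 was −0.02, beside 0.02 for all genes tested. Sulf1 was at −0.07 (SE 0.25) and Aldh1a2 at −0.02 (SE 0.26), with adjusted p-values of 0.965 and 0.99.

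**Figure D4:**
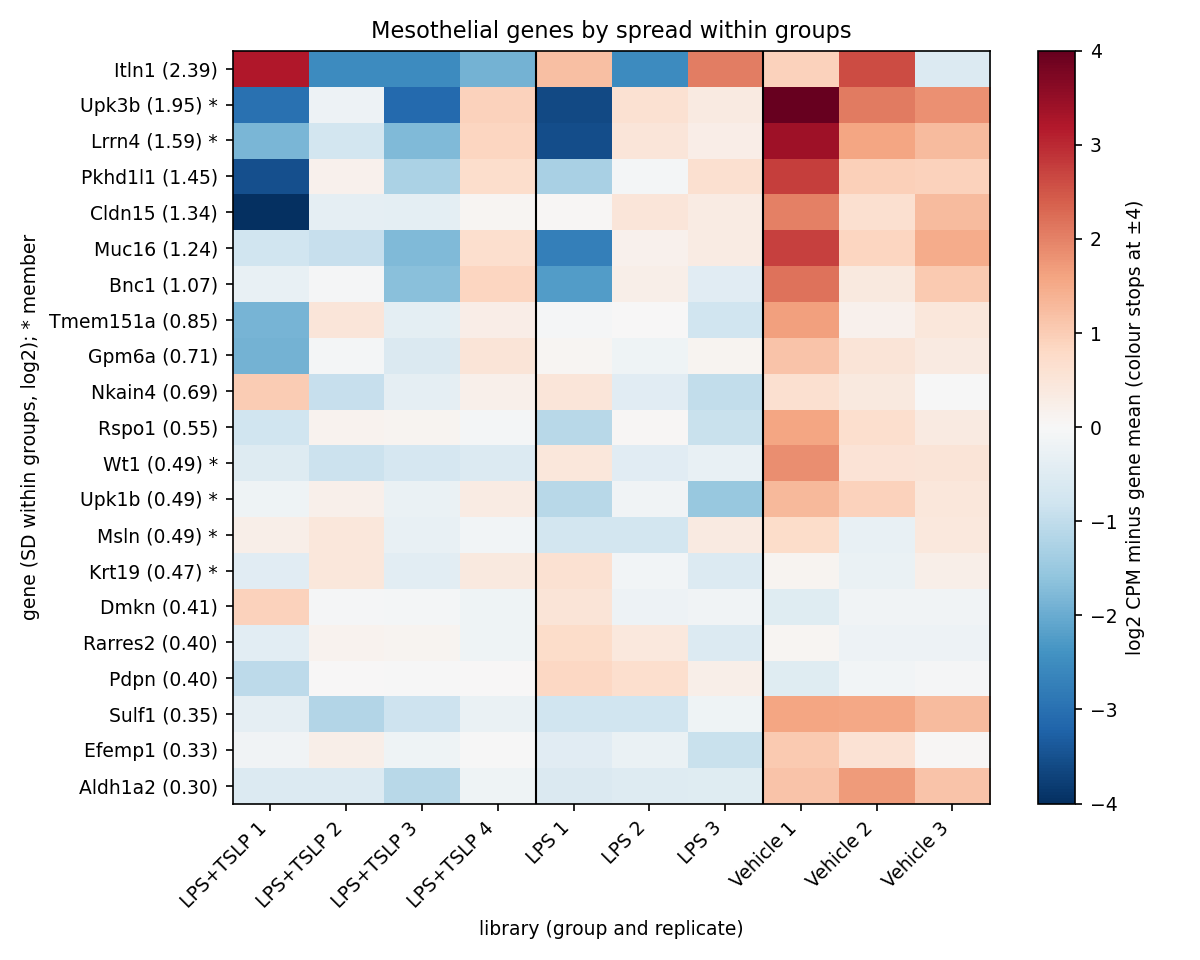
Level of the 6 genes (starred) and 15 other mesothelial genes in each library, as log2 CPM minus the gene's mean over 10 libraries, ordered by the SD within groups printed beside each gene; vertical lines divide LPS+TSLP, LPS and Vehicle. Upk3b, Lrrn4, Muc16 and Bnc1 share a dark column at LPS replicate 1 and a red one at Vehicle replicate 1, while Sulf1, Efemp1 and Aldh1a2 at the foot vary little within groups.

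The relatives of the 6 genes were mostly near the limit of detection or level across groups. Of the other uroplakin genes, Upk1a and Upk2 could be tested, Upk3a had at most 12 counts and Upk3bl at most 3 in any library. Upk1a averaged 0.747 ± 0.216 CPM in LPS+TSLP, 0.785 ± 0.535 CPM in LPS and 0.846 ± 0.439 CPM in Vehicle, and Upk2 was at most 25 counts in a library. Neither was called by edgeR in any comparison, and neither had an unadjusted p under 0.05. Among keratins, Krt8, a keratin of simple epithelia, averaged 205 ± 45.1 CPM in LPS+TSLP, 191 ± 38.4 CPM in LPS and 182 ± 4.65 CPM in Vehicle. Krt7, Krt8, Krt18 and Krt15 were tested, and none was called or had an unadjusted p under 0.05 in the 3 comparisons. Of genes regulated by WT1 in kidney, gonad or epicardium, 6 of 7 were tested and Nphs1 had no count in any library, which allows up to 3 counts in each. Aldh1a2, also in the list above, was the only one called, 1 of 6 in LPS against Vehicle and in LPS+TSLP against Vehicle, beside 10.7% and 5.35% of all genes tested called lower. Podxl, Amhr2, Spry1, Wnt4 and Areg were called in none of the comparisons, and Wnt4 had the smallest adjusted p among them, 0.156, in LPS against Vehicle (log2 fold change −0.65, SE 0.32). Of these 5 genes Wnt4 alone had an unadjusted p under 0.05, in LPS+TSLP against LPS (log2 fold change 0.91, SE 0.31, unadjusted p = 0.0121, adjusted p = 0.589).

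Markers of other tissues in the chest and of neighbouring cell types were measured in the same libraries. The summed level of 6 cardiac muscle markers was 45.4 to 545 CPM in LPS+TSLP, 35.9 to 199 CPM in LPS and 88.4 to 641 CPM in Vehicle, with none at 0 in a whole group, and Actc1 was the 1 of the 6 that fell in LPS against Vehicle. That of 6 adipocyte markers was 16.8 to 21.2 CPM in LPS+TSLP, 17.9 to 43 CPM in LPS and 37 to 231 CPM in Vehicle, with Lep at 0 in LPS+TSLP and in LPS. Of the 4 adipocyte markers tested, Plin1 and Cidec fell in LPS against Vehicle. In that comparison 10.7% of all genes tested were called lower and 14.2% higher. Both sums peaked among Vehicle libraries in replicate 2, at 641 and 231 CPM, with Myh6 (301 CPM) and Cfd (153 CPM) as large parts. Within Vehicle, Upk3b, Lrrn4, Wt1, Upk1b and Msln peaked in replicate 1, which had 112 CPM of cardiac and 51.3 CPM of adipocyte markers. Krt19 peaked in Vehicle replicate 3. Of the other mesothelial genes, Aldh1a2 and Itln1 peaked in Vehicle replicate 2. The 8 fibroblast markers summed to 2277 to 4105 CPM in LPS+TSLP, 1524 to 2809 CPM in LPS and 4531 to 6369 CPM in Vehicle, and 3 of the 8 fell in LPS against Vehicle. Of 6 endothelial markers 4 fell in that comparison, with sums of 2238 to 3447 CPM in LPS+TSLP, 2916 to 3019 CPM in LPS and 3578 to 4778 CPM in Vehicle. Of 6 leukocyte markers, Ptprc, Cd52 and Cd53 rose in LPS against Vehicle, with sums of 1187 to 2200 CPM in LPS+TSLP, 1818 to 2407 CPM in LPS and 1275 to 1553 CPM in Vehicle. The 6 neutrophil markers summed to 118 to 1049 CPM in LPS+TSLP, 1527 to 2038 CPM in LPS and 351 to 1132 CPM in Vehicle. None was called by edgeR, though S100a8 and S100a9 had an unadjusted p under 0.05 in LPS against Vehicle, as did these and Retnlg in LPS+TSLP against LPS. Skeletal muscle markers summed to at most 19.7 CPM and thymus markers to at most 34.2 CPM in any library, with Myh4 at 0 in LPS and in Vehicle and Ptcra at 0 in LPS. How much pleura or adjoining tissue each sample held was not measured, and the part of these markers in the differences of the 6 genes was not tested.

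The genes whose profile over the 10 libraries came closest to the mean profile of the 6 were Sec14l3, Plce1, Tlr5, Elfn1, Myo5b, Fat3, Ptprm and Sort1. Likeness was the root mean square difference of centred log2 CPM, over 13814 protein-coding genes with a mean of at least 1 CPM. It was 0.246 for Sec14l3 and 0.316 for Sort1, the eighth, whereas the 6 genes themselves lay 0.602 (Upk1b) to 1.493 (Upk3b) from their own mean. The mean profile thus described none of them closely. The pair of Upk3b and Lrrn4 was looked at separately after its values were seen. Closest to the mean of that pair was Muc16, at 0.782, followed by Sstr4 at 0.791, Chst4 at 0.871 and Pdpr at 0.885. Piezo1, a mechanically gated cation channel, came sixth at 0.975. Piezo1 had 36.4, 57.7, 45.6 and 153 CPM in LPS+TSLP, 8.96, 75.3 and 126 CPM in LPS, and 249, 242 and 235 CPM in Vehicle. Like Upk3b, it was lowest in LPS replicate 1 and, outside Vehicle, highest in LPS+TSLP replicate 4, the LPS+TSLP library with the smallest mitochondrial share (2.0%). LPS replicate 1, however, had the smallest share outside Vehicle (1.2%). The part of RNA quality in the spread of these genes was not tested.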

How the data were processed

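Total RNA of lung was extracted with Trizol and sequenced as Illumina libraries, per the labels' protocols. The authors deposited raw read counts per gene. The submitters' processing notes name HTSeq 0.6.0, HISAT2, CASAVA and the build GRCm38/mm10. Annotation release and strand setting are not given in the sources used here, so reads of overlapping antisense genes may be mixed. Of the identifiers, 99.93% matched GENCODE M21, which gave positions and exonic lengths.

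Genes passing filterByExpr (17139) were scaled by TMM and tested two-sided by robust quasi-likelihood in edgeR 4.0.16 (R 4.3.3). A single fit took all 10 libraries and left 7 residual degrees of freedom, with Benjamini-Hochberg adjustment over all genes tested. Log2 CPM used a prior count of 2. The 6 genes, the comparison lists and the tests were chosen with earlier results of these data known. The text names the 6 genes, genes of the mesothelial, uroplakin, keratin and WT1 lists (those called first), cell type markers by summed level, and the 8 genes with the most similar profile.

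Alternatives were other scalings (DESeq2 1.42.0 size factors, upper quartile, library size), other filters, the DESeq2 Wald test, limma-voom (limma 3.58.1), removal of GC or length trends by loess (span 0.3), fits of the groups compared, the replicate number as a block, and leaving out libraries. The scripts were also tested on simulated data. Depth was 16175172 to 18374461 counts per library. Floors for a count of 0 cover counting error only.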

Additional observations from a re-analysis of the deposited data

Results flagged for a closer look

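In the LPS+TSLP group a library stood far from the other 3 in 3 of the 21 mesothelial genes checked. The measure is the gap to the nearest library divided by the group's range, set against Dixon's 95% critical value for 4 libraries, which chance passes in about 1 of 20 groups. For Itln1, an intestinal lectin gene, the measure was 0.99, with 5.89 CPM in replicate 1 and 0, 0 and 0.061 CPM in the others. For Pdpn it was 0.966, with 97.5 CPM in replicate 1 and 200, 203 and 204 CPM in the others. For Dmkn, the dermokine gene, it was 0.921, with 31 CPM in replicate 1 and 14.5, 15.5 and 15.8 CPM in the others. In all 3 the library apart was LPS+TSLP replicate 1, the one with 13.1% mitochondrial counts. None of the 6 genes Wt1, Upk3b, Upk1b, Msln, Lrrn4 and Krt19 passed the limit. Their groups of 3 libraries were not checked in this way.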

How the results depend on the processing

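In LPS against Vehicle, Upk3b, Lrrn4, Wt1, Upk1b and Msln kept a negative log2 fold change in all settings that gave a value, Upk3b between −3.71 and −2.06. Krt19 took either sign, between −0.35 and 0.30. Upk1b was the 1 of the 6 called lower. The count was 2 by the DESeq2 Wald test and by limma-voom, and 1 to 2 over the leave-one-out fits (2 without LPS replicate 3). Of the 15 other mesothelial genes 4 were called lower, with 2 (without Vehicle replicate 1) to 5 over the leave-one-out fits. None was called higher, against 1 by the DESeq2 Wald test, with the GC trend removed, with the groups compared alone, and with replicate 1 of both LPS and LPS+TSLP left out, and 0 to 2 over the leave-one-out fits.

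In LPS+TSLP against Vehicle the count of 1 called lower among the 6 depended on the setting. It was 0 with no filter, 0 with genes required to reach 1 CPM in 3 libraries (which dropped Wt1) and 0 with the GC trend removed. It was 2 with DESeq2 size factors, 2 with upper quartile factors, 2 with the groups compared alone, 2 with the replicate block, 3 with the length trend removed, 3 without LPS replicate 1 and LPS+TSLP replicate 1, and 4 by the DESeq2 Wald test. Leave-one-out fits gave 0 to 3. Of the 15 others 2 were called lower, against 6 by the Wald test, 5 with the length trend removed, 4 without those 2 libraries, and 2 to 4 over the leave-one-out fits. The cause of these differences was not tested.

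In LPS+TSLP against LPS none of the 6 and none of the 15 was called under any setting run. Upk3b lay between −1.76, with the replicate block, and 0.13. Lrrn4 lay between −1.45, also with the block, and 0.43, by limma-voom. Wt1 had no value in the fit of these groups alone, where the filter dropped it. Same-numbered libraries deviated together with correlations from −0.34 to 0.40, over 0.1 in 3 of 9 pairs, and were treated as unpaired. Over all genes, the count called lower in LPS against Vehicle (1836) ran from 640, without Vehicle replicate 1, to 2492. It was 824 without Vehicle replicate 2 and 964 without LPS replicate 1. The count called higher (2437) was 1021 and 1012 without Vehicle replicates 1 and 2, and 1558 without LPS replicate 1. In LPS+TSLP against Vehicle the count called lower (917) ran from 81, without Vehicle replicate 1, to 1629, and that called higher (1511) from 404, without Vehicle replicate 2, to 2333. Wt1, Muc16, Bnc1 and, in LPS and LPS+TSLP, Lrrn4 rest on few counts, and depth limits what they can show.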
